A study of Mus musculus with 6 samples.

Results

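The NEDD4-family ubiquitin ligases and their adaptors were examined in liver RNA of mice lacking Arid2 in the liver (LKO) and of wild-type (WT) mice. The 9 genes were taken by name: the 7 HECT-type ligase genes Nedd4, Nedd4l, Itch, Wwp1, Wwp2, Smurf1 and Smurf2, and the 2 adaptor genes Ndfip1 and Ndfip2. They are 9 of 54532 genes listed per library, and all 9 passed the filter on low values that left 11672 genes for testing. The 6 libraries comprised 3 from LKO and 3 from WT liver, all from untreated animals. The genotype is given as a liver-specific knockout of Arid2, which encodes a subunit of PBAF, a complex that remodels chromatin. The driver of the deletion, the strain, age and sex of the animals, and whether each library came from a separate animal were not given in the sources used here, so p-values measure only the spread between these samples. The study title links Arid2 to ubiquitination of the kinase JAK2 in hepatic steatosis, and the question was whether transcripts of this ligase family differed between the genotypes.

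Ligases of this family carry a lipid-binding C2 domain, WW domains and a catalytic HECT domain. The HECT domain takes ubiquitin from an E2 enzyme onto its own cysteine and passes it to the substrate, while the WW domains dock on short proline- and tyrosine-containing (PY) motifs. Many substrates lack such a motif, and the Ndfip proteins, which sit in Golgi and endosomal membranes and carry PY motifs, bring ligase and substrate together and relieve the autoinhibition of the ligase. In animals the family is best known for removing ion channels, transporters and receptors from the cell surface and for limiting TGF-beta signalling.

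Values are FPKM, which are relative to exon length and to a scale per library, so levels of different genes can be set side by side. The length is that of all annotated exons of a gene merged. Orders, ratios and shares across genes depend on it. The reads recovered from the FPKM steps summed to between 13947785 and 18159282 per library, and the 9 genes had between 166 and 25712 reads in any library. The totals that the size of the step implies ran from 12704124 (LKO replicate 1) to 19279624 (WT replicate 1). FPKM were therefore not scaled to the recovered sums. Hepatocyte markers summed to between 47316 and 65396 FPKM in LKO and between 43764 and 57766 FPKM in WT libraries. The transcript of the deleted gene did not separate the groups: Arid2 had 2.55, 1.33 and 2.04 FPKM in LKO replicates 1 to 3, against 2.65, 1.74 and 1.79 FPKM in WT replicates 1 to 3. These are sums over the whole gene, so a deleted exon could not be viewed, and the labels were not checked by it. Directions given here set the libraries labelled LKO against the libraries labelled WT. The libraries numbered 1 stood apart, with 2368 (LKO) and 2003 (WT) genes covered by 1 to 5 reads, against 3913 to 4263 such genes in the other LKO and WT libraries.

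None of the 9 genes differed between LKO and WT beyond the spread of the libraries. In the fit over all genes 0 of 9 passed an adjusted p of 0.05 (limma), 0 had an unadjusted p under 0.05, and 0 were called with voom on recovered reads. Over all genes tested, 0.0428% were called (0.00857% higher and 0.0343% lower in LKO), 0.0514% with voom, and 9.22% had an unadjusted p under 0.05. The LKO and WT libraries did not overlap for 15.4% of all genes tested, with LKO above in 8.0% and below in 7.42%, and for 0 of the 9 genes. The log2 difference was above 0 for 6 genes and below 0 for 3, with a median of 0.24 against 0.03 over all genes tested. Exact two-sided permutation tests of the 9 single genes gave p between 0.2 and 0.8, where 3 against 3 libraries cannot go below 0.1. With array quality weights, which called 10.2% of all genes tested and whose estimation did not converge, 2 of the 9 were called, Nedd4l (limma adjusted p = 0.0287) and Smurf1 (limma adjusted p = 0.0309). In bulk liver, fewer cells of a type and less RNA per cell cannot be told apart.

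**Figure D1:**
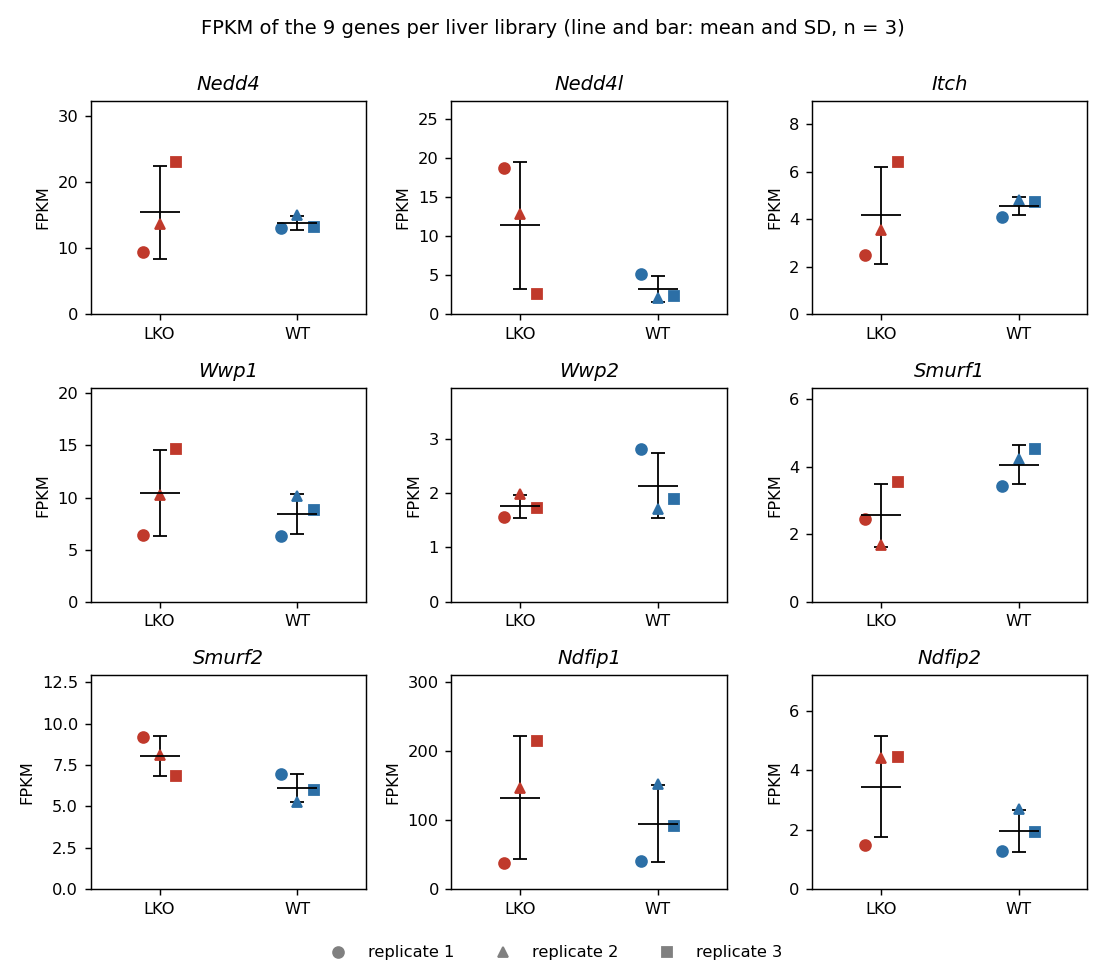
FPKM (vertical axes, each starting at 0) of the 9 genes in the LKO and WT liver libraries, with symbols for the replicate number, and lines and bars for the mean and SD of 3 libraries. For Nedd4l the LKO libraries lie at 18.7, 12.8 and 2.58 FPKM and the WT libraries at 5.18, 2.15 and 2.38, and in no panel do all LKO libraries lie on one side of all WT libraries.

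Nedd4l had the largest difference of the 9 genes, and it rested on 2 of the 3 LKO libraries. Nedd4l (ENSMUSG00000024589, chromosome 18, 64887705 to 65217828, plus strand, mm10) encodes the ligase best known for withdrawing the epithelial sodium channel from the cell surface. LKO replicates 1 to 3 held 18.7, 12.8 and 2.58 FPKM of Nedd4l, counted as 4191, 3539 and 866 reads. WT replicates 1 to 3 held 5.18, 2.15 and 2.38 FPKM, counted as 1762, 667 and 657 reads. LKO replicates 1 and 2 were thus above every WT library, while LKO replicate 3 lay inside the WT range. The mean was 11.4 ± 8.15 FPKM in LKO and 3.23 ± 1.69 FPKM in WT (SD, n = 3 each), a ratio of 3.51. On the log2(FPKM + 1) scale, used for every log2 difference here, the groups differed by 1.30 ± 0.63 (SE; limma, 95% interval -0.18 to 2.77, adjusted p = 0.603). A difference of at least 1 in size was found for 5.54% of all genes tested. The difference was 2.03 without LKO replicate 3 (limma adjusted p = 0.109) and 0.80 without LKO replicate 1 (limma adjusted p = 0.512). Between the lowest and the highest library Nedd4l varied 8.70-fold, and 95.3% of tested genes had a smaller range on the log2 scale.

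The 5 genes nearest to Nedd4l in profile were, like it, highest in LKO replicates 1 and 2. Likeness was measured as the root mean square difference of log2(FPKM + 1) over the 6 libraries after centring each gene on its mean, among 4310 genes averaging 5 FPKM or more with an established symbol. The nearest gene was Socs3, which encodes a feedback inhibitor of JAK signalling that is induced by STAT factors, at a distance of 0.24. The nearest gene to Nedd4 lay at 0.058 and the nearest to Wwp1 at 0.037. The distance is not scaled by a gene's own range, which was 2.65 for Nedd4l, 1.21 for Nedd4 and 1.11 for Wwp1. It therefore does not show which gene has the closer match in shape. Socs3 had 31.9, 13.2 and 4.01 FPKM in LKO replicates 1 to 3 and 9.29, 3.15 and 3.41 FPKM in WT replicates 1 to 3. As for Nedd4l, LKO replicates 1 and 2 were highest and WT replicate 1 came next. Nrg4, a secreted ligand of ERBB receptors, lay at a distance of 0.24, with 20.5, 18.5 and 3.73 FPKM in LKO and 4.51, 3.33 and 2.52 FPKM in WT libraries. Trim47, which encodes a RING-type ubiquitin ligase, was at 0.27, Zc3h13, a component of the RNA methylation machinery, at 0.28, and Atg2a, a lipid transfer protein of autophagy, at 0.32. None of these 5 genes was called (limma adjusted p between 0.482 and 0.777). The sums of 6 neutrophil markers and of 6 stellate cell markers were also highest in LKO replicates 1 and 2. The stellate sum was 18.7, 19.7 and 11.4 FPKM in LKO replicates 1 to 3. In WT replicates 1 to 3 it was 10.3, 15.7 and 13.9 FPKM. Stellate markers did not all follow: Lrat was highest in WT replicate 2, at 1.92 FPKM. The neutrophil sum was 15.9, 11.1 and 3.25 FPKM in LKO replicates 1 to 3. In WT replicates 1 to 3 it was 3.82, 0.803 and 3.39 FPKM. In LKO replicates 1 and 2, S100a8 had 4.65 and 2.21 FPKM and S100a9 7.54 and 5.76 FPKM. Other neutrophil markers did not follow: Csf3r had 1.57 FPKM in WT replicate 1 against 1.38 in LKO replicate 2. Retnlg had 0.61 FPKM in WT replicate 1 against 0.40 in LKO replicate 1, and Mpo was highest in WT replicate 1. The defining neutrophil gene Ly6g was at 0 in every library. The part of neutrophils or stellate cells in the Nedd4l values was not tested.

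**Figure D2:**
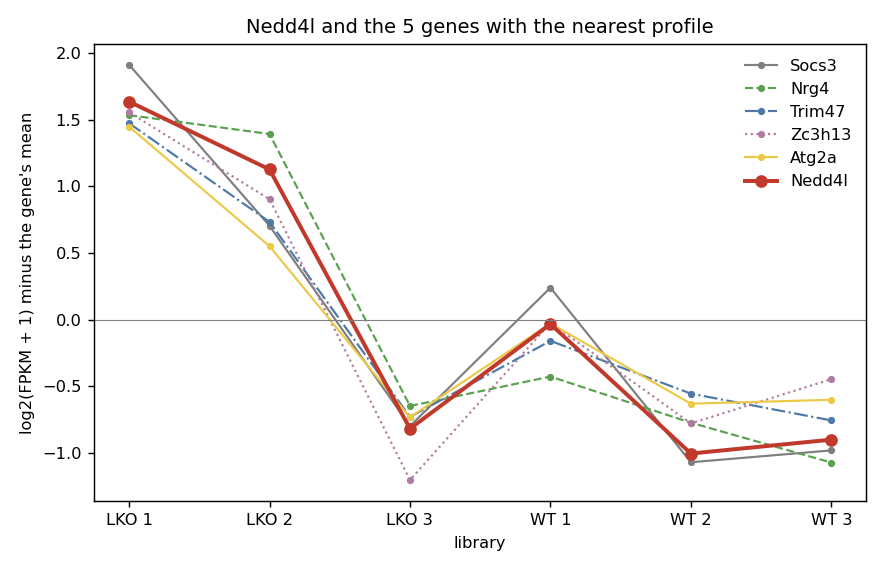
Profiles of Nedd4l (thick line) and of the 5 genes nearest to it, as log2(FPKM + 1) minus the gene's mean over the 6 libraries (vertical axis), by library (horizontal axis). LKO replicates 1 and 2 lie above 0 for every gene shown, and LKO replicate 3 lies below 0 with WT replicates 2 and 3.

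Nedd4 is the closest relative of Nedd4l, and the founding member of the family. It was the most abundant ligase transcript by mean FPKM in both groups. Nedd4 (ENSMUSG00000032216, chromosome 9, 72662346 to 72749852, plus strand) had 9.45, 13.7 and 23.2 FPKM in LKO replicates 1 to 3 and 13.1, 15.1 and 13.3 FPKM in WT replicates 1 to 3. The WT libraries lay close together, whereas LKO replicate 1 was below and LKO replicate 3 above all of them. The means were 15.4 ± 7.01 FPKM in LKO and 13.8 ± 1.09 FPKM in WT, with a log2 difference of 0.07 ± 0.34 (SE; limma, 95% interval -0.74 to 0.87, adjusted p = 0.976). The LKO libraries ran in opposite order for Nedd4l and Nedd4. The ratio of Nedd4 to Nedd4l FPKM was 0.506, 1.07 and 8.97 in LKO replicates 1 to 3 and 2.54, 7.03 and 5.57 in WT replicates 1 to 3. By FPKM, Nedd4l exceeded Nedd4 in LKO replicate 1 alone. This order depends on the merged exon lengths, 17659 bases for Nedd4l and 10973 for Nedd4. By reads, Nedd4l exceeded Nedd4 in LKO replicate 1 (4191 against 1317) and in LKO replicate 2 (3539 against 2357).

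Itch and Wwp1 varied with Nedd4 across the libraries. Itch (ENSMUSG00000027598, chromosome 2, 155133509 to 155226855, plus strand) encodes the ligase that restrains JunB in T cells. Itch had 2.50, 3.55 and 6.42 FPKM in LKO replicates 1 to 3 and 4.10, 4.82 and 4.74 FPKM in WT replicates 1 to 3. LKO replicates 1 and 2 were below every WT library and LKO replicate 3 above every one. The log2 difference was -0.18 ± 0.31 (SE; limma, 95% interval -0.90 to 0.55, adjusted p = 0.920). By root mean square difference, the profiles of Nedd4 and Itch were the most alike of any pair among the 9 genes (0.14). By the same measure 1.10% of tested genes were nearer to Nedd4 than Itch was. Wwp1 (ENSMUSG00000041058, chromosome 4, 19608303 to 19708993, minus strand), whose protein targets KLF factors and receptors, had 6.42, 10.2 and 14.7 FPKM in LKO and 6.28, 10.1 and 8.84 FPKM in WT replicates 1 to 3. Wwp1 was lowest in the library numbered 1 of each genotype, and its log2 difference was 0.24 ± 0.34 (SE; limma, 95% interval -0.56 to 1.03, adjusted p = 0.896).

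Wwp2 was the least abundant ligase and varied little. Wwp2 (ENSMUSG00000031930, chromosome 8, 107436365 to 107558595, plus strand) had 1.56, 1.98 and 1.71 FPKM in LKO replicates 1 to 3 and 2.81, 1.71 and 1.89 FPKM in WT replicates 1 to 3. WT replicate 1 was above all other libraries, which overlapped. The log2 difference was -0.18 ± 0.22 (SE; limma, 95% interval -0.68 to 0.33, adjusted p = 0.879). The host gene of the microRNA gene Mir140 is Wwp2, and Mir140 itself was listed at 0 FPKM in every library; it lies whole within an exon of Wwp2.

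The paralogues Smurf1 and Smurf2 had log2 differences of opposite sign. Both ligases bind SMAD proteins and, through the inhibitory SMAD7, direct ubiquitin to the TGF-beta receptor. Smurf1 (ENSMUSG00000038780, chromosome 5, 144876495 to 144965847, minus strand) had 2.45, 1.68 and 3.54 FPKM in LKO replicates 1 to 3 and 3.42, 4.23 and 4.53 FPKM in WT replicates 1 to 3. LKO replicates 1 and 2 were below every WT library, and LKO replicate 3 was just above WT replicate 1. The means were 2.55 ± 0.936 FPKM in LKO and 4.06 ± 0.571 FPKM in WT, with a log2 difference of -0.54 ± 0.26 (SE; limma, 95% interval -1.15 to 0.07, adjusted p = 0.603). Smurf2 (ENSMUSG00000018363, chromosome 11, 106820066 to 106920715, minus strand) had 9.21, 8.12 and 6.83 FPKM in LKO replicates 1 to 3 and 6.98, 5.28 and 6.01 FPKM in WT replicates 1 to 3. LKO replicates 1 and 2 were above every WT library here, and LKO replicate 3 was just below WT replicate 1. The means were 8.05 ± 1.19 FPKM in LKO and 6.09 ± 0.854 FPKM in WT, with a log2 difference of 0.35 ± 0.24 (SE; limma, 95% interval -0.20 to 0.90, adjusted p = 0.735). The ratio of Smurf2 to Smurf1 FPKM was 3.76, 4.84 and 1.93 in LKO and 2.04, 1.25 and 1.33 in WT replicates 1 to 3, so LKO replicates 1 and 2 stood above the rest and LKO replicate 3 lay inside the WT range.

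The sequences upstream of the start sites are shown for the Smurf pair, whose log2 differences had opposite signs, for Nedd4, the most abundant ligase, and for the adaptor Ndfip2. They are the 250 bases before the RefSeq start on GRCm38.p6, 5′ to 3′ on the gene's strand: chr5:144965831-144966080 (minus) for Smurf1, chr11:106920716-106920965 (minus) for Smurf2, chr9:72662081-72662330 (plus) for the upstream start of Nedd4, and chr14:105258373-105258622 (plus) for Ndfip2. Capitals mark CG dinucleotides.
Smurf1: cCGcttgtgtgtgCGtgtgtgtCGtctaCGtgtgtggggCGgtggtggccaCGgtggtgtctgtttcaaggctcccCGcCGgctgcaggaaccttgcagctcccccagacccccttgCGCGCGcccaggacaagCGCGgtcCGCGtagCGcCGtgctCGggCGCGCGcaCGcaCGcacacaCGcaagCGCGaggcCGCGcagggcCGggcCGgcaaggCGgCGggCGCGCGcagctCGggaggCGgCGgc
Smurf2: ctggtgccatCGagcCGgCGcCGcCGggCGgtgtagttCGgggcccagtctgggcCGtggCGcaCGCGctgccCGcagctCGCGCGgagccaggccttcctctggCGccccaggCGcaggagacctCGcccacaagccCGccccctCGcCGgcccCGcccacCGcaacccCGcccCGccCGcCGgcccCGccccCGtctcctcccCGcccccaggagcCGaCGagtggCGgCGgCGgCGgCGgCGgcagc
Nedd4: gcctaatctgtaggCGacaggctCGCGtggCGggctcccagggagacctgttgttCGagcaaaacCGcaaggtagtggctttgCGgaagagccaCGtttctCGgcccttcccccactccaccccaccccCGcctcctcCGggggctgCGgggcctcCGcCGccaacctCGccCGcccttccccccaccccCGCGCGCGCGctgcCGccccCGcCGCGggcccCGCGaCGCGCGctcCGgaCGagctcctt
Ndfip2: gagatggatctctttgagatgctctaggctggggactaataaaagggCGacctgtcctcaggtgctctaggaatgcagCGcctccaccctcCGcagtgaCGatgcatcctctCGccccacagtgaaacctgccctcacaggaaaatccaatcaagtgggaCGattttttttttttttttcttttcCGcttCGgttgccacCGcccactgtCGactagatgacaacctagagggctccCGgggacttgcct
The Smurf1 and Smurf2 windows each held 38 CG dinucleotides, more than in 98.1% of 32851 RefSeq windows of this length. The Nedd4 window held 32 and the Ndfip2 window 11, against a median of 6 over all windows. The letters TTCNNNGAA, the core bound by STAT factors and the same on both strands, were in none of these 4 windows and in 7.02% of all windows. They were in the window of a second RefSeq start of Nedd4, chr9:72693048-72693297 (plus), which held 9 CG dinucleotides. The SMAD box CAGACA, searched on both strands, was in the Smurf1 window and in 17.1% of all windows. These matches are descriptions of the letters and not of binding.

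The adaptor Ndfip1 was by far the most abundant transcript of the 9, and it varied more between replicates than between genotypes. Ndfip1 (ENSMUSG00000024425, chromosome 18, 38410396 to 38465303, plus strand) had 37.0, 146 and 214 FPKM in LKO replicates 1 to 3 and 40.7, 152 and 90.9 FPKM in WT replicates 1 to 3. The libraries numbered 1 were the lowest of both genotypes, and LKO replicate 3 was the highest. The means were 132 ± 89.2 FPKM in LKO and 94.5 ± 55.7 FPKM in WT, with a log2 difference of 0.34 ± 0.73 (SE; limma, 95% interval -1.38 to 2.06, adjusted p = 0.932). The interval is the widest of the 9 genes and covers large differences in either direction. With the replicate number as a block, the estimate stayed at 0.34 and its SE was 0.35, against 0.73 without it. The share of reads on the mitochondrial genome ran nearly opposite to Ndfip1, at 27.6%, 7.72% and 4.76% in LKO and 20.7%, 10.2% and 18.5% in WT replicates 1 to 3. The part of that share in the Ndfip1 values was not tested. The gene nearest to Ndfip1 in profile was Akr1c13, at a distance of 0.11. Next came Sdha at 0.12, Sdhd at 0.13, Ctsh at 0.13 and Pitpnb at 0.14. Of these 5 genes, Sdha and Sdhd are nuclear genes for subunits of respiratory complex II. All 5 are named after their values were seen.

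Ndfip2 was far less abundant. The root mean square difference of its profile was 0.23 to Wwp1 and 0.54 to Ndfip1. This distance is not scaled by a gene's own log2 range, which was 2.50 for Ndfip1, 1.25 for Ndfip2 and 1.11 for Wwp1. It therefore does not show which of them Ndfip2 is nearer to in shape. Ndfip2 (ENSMUSG00000053253, chromosome 14, 105258573 to 105309298, plus strand) had 1.49, 4.41 and 4.44 FPKM in LKO replicates 1 to 3 and 1.29, 2.69 and 1.90 FPKM in WT replicates 1 to 3. LKO replicates 2 and 3 were above every WT library, and LKO replicate 1 lay inside the WT range. The means were 3.45 ± 1.69 FPKM in LKO and 1.96 ± 0.703 FPKM in WT, with a log2 difference of 0.53 ± 0.36 (SE; limma, 95% interval -0.32 to 1.38, adjusted p = 0.745).

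**Figure D3:**
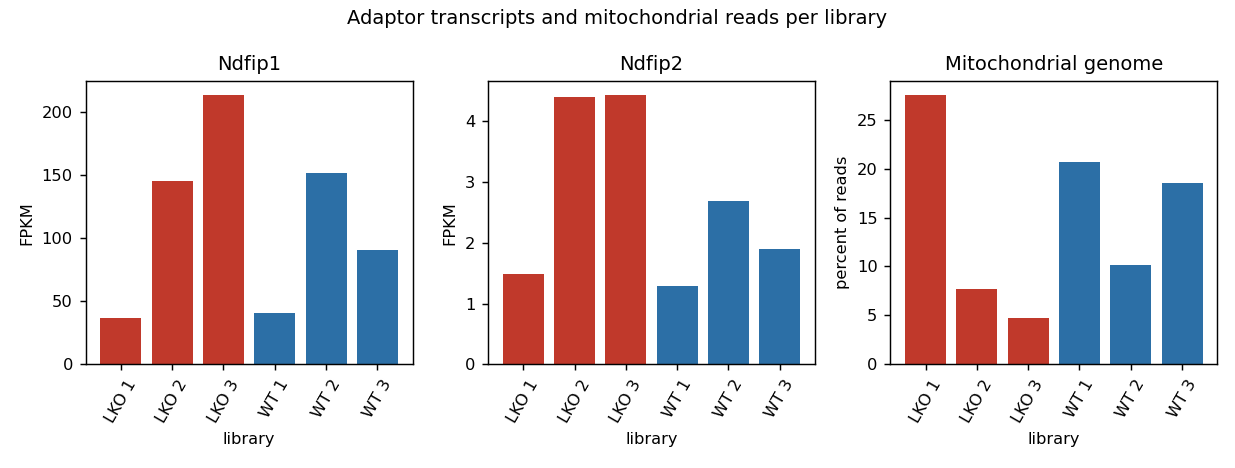
FPKM of Ndfip1 and Ndfip2 and the percentage of reads on the mitochondrial genome (vertical axes) in each LKO and WT library. Ndfip1 is at 37.0 FPKM in LKO replicate 1 and 40.7 FPKM in WT replicate 1, the libraries with the highest mitochondrial shares, 27.6% and 20.7%.

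**Figure D4:**
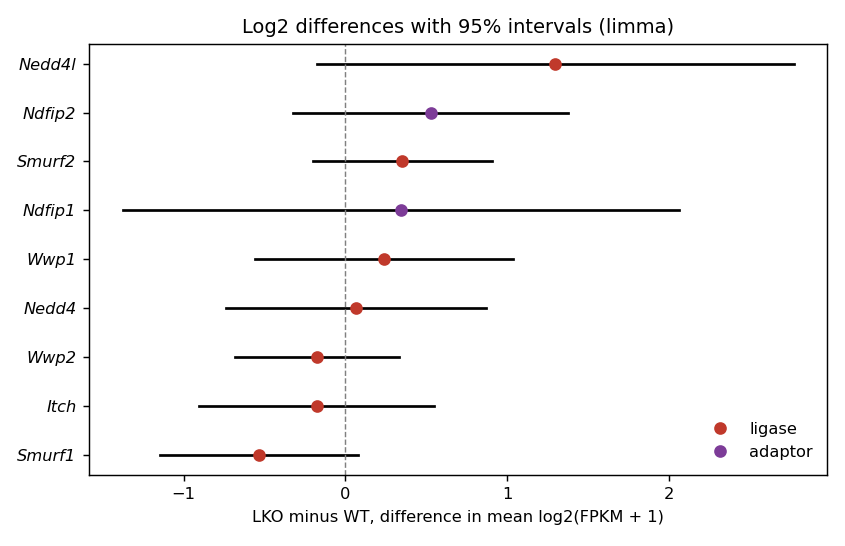
Log2 differences, LKO minus WT, on the log2(FPKM + 1) scale (horizontal axis) for the 7 ligases and 2 adaptors, with points for the estimate and lines for limma's 95% interval. Every interval includes 0, from Smurf1 at -0.54 to Nedd4l at 1.30.

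The order of mean levels differed between the groups mainly in the place of Nedd4l, whose LKO mean rested on LKO replicates 1 and 2. In LKO replicate 3, Nedd4l (2.58 FPKM) was below Itch (6.42), Ndfip2 (4.44) and Smurf1 (3.54). In LKO the order of means was Ndfip1, Nedd4, Nedd4l, Wwp1, Smurf2, Itch, Ndfip2, Smurf1 and Wwp2. In WT it was Ndfip1, Nedd4, Wwp1, Smurf2, Itch, Smurf1, Nedd4l, Wwp2 and Ndfip2. Neighbours that differed by more than the larger of their SDs were Ndfip1 and Nedd4, and Smurf2 and Itch, in LKO. In WT these were Ndfip1 and Nedd4, Nedd4 and Wwp1, Wwp1 and Smurf2, and Smurf2 and Itch. The remaining neighbours did not differ beyond their spread.

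Summed over the 7 ligases, FPKM was 50.3, 52.1 and 58.9 in LKO replicates 1 to 3 and 41.9, 43.4 and 41.6 in WT replicates 1 to 3. Every LKO library was above every WT library, with means of 53.8 ± 4.55 in LKO and 42.3 ± 0.939 in WT (SD, n = 3 each); no test was made of a sum over chosen genes. Without Nedd4l the sums were 31.6, 39.3 and 56.3 in LKO replicates 1 to 3 and 36.7, 41.2 and 39.3 in WT replicates 1 to 3, and the groups overlapped. The order also depended on the scale between libraries: with FPKM set to equal sums over all genes, the sums were 39.9, 52.5 and 76.4 in LKO and 44.0, 47.2 and 37.6 in WT replicates 1 to 3, and the groups overlapped. They also overlapped with equal sums over nuclear genes, an alternative added after seeing the data. The make-up of the sum needs no such scale. Nedd4l made up 37.2%, 24.6% and 4.38% of ligase FPKM in LKO replicates 1 to 3, against 12.4%, 4.95% and 5.72% in WT replicates 1 to 3, while Nedd4 took 18.8%, 26.4% and 39.3% in LKO and 31.4%, 34.8% and 31.8% in WT. LKO replicate 1 and LKO replicate 3 therefore held different mixtures, with Nedd4l the largest share in LKO replicate 1 and Nedd4 in LKO replicate 3. Smurf1 made up 4.87%, 3.22% and 6.01% in LKO and 8.17%, 9.74% and 10.9% in WT, and its shares did not overlap. Wwp2 shares did not overlap either, at 3.11%, 3.80% and 2.91% in LKO and 6.71%, 3.94% and 4.54% in WT, and the other 5 ligases overlapped. Nedd4l is part of the sum behind these shares. As shares of the other 6 ligases, added after seeing the data, Wwp2 overlapped, at 4.95%, 5.04% and 3.04% in LKO and 7.66%, 4.15% and 4.82% in WT. Smurf1 did not, at 7.75%, 4.26% and 6.28% in LKO and 9.32%, 10.2% and 11.5% in WT. The FPKM of Smurf1 and of Wwp2 overlapped between the groups, and FPKM did not overlap for 15.4% of all genes tested. No test was made of the shares. The adaptor FPKM, nearly all Ndfip1, was 0.766, 2.88 and 3.70 times the ligase FPKM in LKO and 1.00, 3.56 and 2.23 times in WT replicates 1 to 3.

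**Figure D5:**
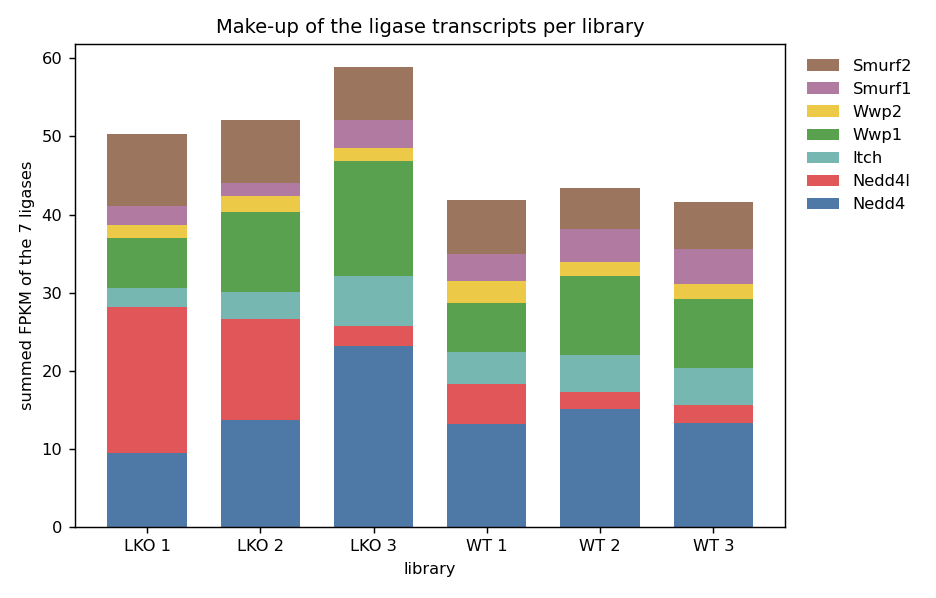
Summed FPKM of the 7 ligases (vertical axis, from 0) in each LKO and WT library, stacked by gene. The columns reach 50.3 to 58.9 in LKO and 41.6 to 43.4 in WT, and the Nedd4l segment is 37.2% of the column in LKO replicate 1 and 4.38% in LKO replicate 3.

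The HECW ligases, which complete the family, were low or without reads. Hecw1 had 0 reads in every library, and 3 reads, the limit that a count of 0 allows from counting error alone, correspond to 0.0106 to 0.0161 FPKM. Hecw2 had 0.657, 0.138 and 0.0935 FPKM in LKO replicates 1 to 3 and 0.232, 0.0790 and 0.237 FPKM in WT replicates 1 to 3, and was not tested.

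Genes that work with the family were described through 12 lists with 166 distinct genes, of which 138 were tested. None of the 138 was called by limma or by voom on recovered reads (0 each), and 15, or 10.9%, had an unadjusted p under 0.05, against 9.22% of all genes tested. Groups did not overlap for 23 of them, or 16.7%, against 15.4% of all genes tested. Their median log2 difference was 0.14, against 0.03 over all genes tested. The median of each of the 11 lists with tested genes moved by over 1.5 times when 1 library was left out.

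Among substrates at the plasma membrane, 0 of 16 tested genes were called (limma), with 9 above 0, 7 below 0 and a median log2 difference of 0.07, which was -0.18 with LKO replicate 3 left out and -0.09 with WT replicate 3 left out. The smallest p belonged to Scnn1a, the alpha subunit of the epithelial sodium channel that NEDD4L ubiquitinates. Scnn1a had 7.98, 4.13 and 7.78 FPKM in LKO replicates 1 to 3 and 19.3, 13.3 and 19.3 FPKM in WT replicates 1 to 3. All 3 LKO libraries lay under the WT range, with a log2 difference of -1.29 ± 0.32 (SE; limma adjusted p = 0.271). The beta and gamma subunit genes Scnn1b and Scnn1g, named after their values were seen, were listed at 0 in all libraries. Tgfbr2, a TGF-beta receptor gene, was at 2.58 ± 0.705 FPKM in LKO and 1.36 ± 0.443 FPKM in WT. Slc11a2, the iron transporter that Ndfip adaptors and WWP2 regulate in mice, was at 4.15 ± 0.743 FPKM in LKO and 2.98 ± 0.491 FPKM in WT (limma adjusted p = 0.513 for Tgfbr2 and 0.699 for Slc11a2).

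Of 15 tested regulators of the ligases other than arrestin-domain adaptors, 0 were called (limma), 9 lay above 0 and 6 below, with a median of 0.07 that was -0.09 with LKO replicate 3 left out and 0.30 with LKO replicate 1 left out. Sgk1 encodes the kinase that phosphorylates NEDD4L and so keeps it from the sodium channel. Sgk1 had 7.30, 4.88 and 5.05 FPKM in LKO replicates 1 to 3 and 3.17, 2.41 and 2.34 FPKM in WT replicates 1 to 3. Every LKO library was above every WT library (log2 difference 0.88 ± 0.24 SE, limma adjusted p = 0.320). The related kinase gene Sgk2 was at 19.7 ± 8.27 FPKM in LKO and 8.15 ± 3.33 FPKM in WT, and Wbp1, which encodes a WW-domain binding protein, at 8.76 ± 1.22 FPKM in LKO and 16.8 ± 1.82 FPKM in WT. Neither Sgk2 nor Wbp1 overlapped between the groups. The 14-3-3 proteins bind the phosphorylated NEDD4L, and of their 7 genes 0 were called and 5 lay above 0 (limma, median 0.16, and 0.03 without WT replicate 1 to 0.42 without LKO replicate 1). Ywhag was at 20.8 ± 6.02 FPKM in LKO and 10.5 ± 3.88 FPKM in WT, Ywhaz at 22.2 ± 3.01 FPKM in LKO and 14.2 ± 2.39 FPKM in WT, and Ywhah overlapped between the groups. None of 5 arrestin-domain adaptor genes was called (limma), the median was -0.43 but 0.03 without LKO replicate 1, -0.13 without LKO replicate 2 and -0.04 without both libraries numbered 1, and Arrdc1, Arrdc2 and Arrdc4 overlapped between the groups.

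Intracellular substrates included 22 tested genes, of which 0 were called (limma), 17 lay above 0 and 5 below, with a median of 0.21 that was 0.08 with WT replicate 1 left out and 0.33 with WT replicate 2 left out. Junb, a transcription factor gene whose protein is an ITCH target, had 125, 49.4 and 100 FPKM in LKO replicates 1 to 3 and 33.5, 38.1 and 44.6 FPKM in WT replicates 1 to 3. All LKO libraries were above all WT libraries (log2 difference 1.13 ± 0.40 SE, limma adjusted p = 0.441). Smad1, a mediator of BMP signalling that both SMURF proteins target, was at 4.83 ± 2.43 FPKM in LKO and 2.27 ± 0.436 FPKM in WT, and overlapped. Stat3 did not overlap, with 18.8 ± 5.28 FPKM in LKO and 7.27 ± 0.154 FPKM in WT (limma adjusted p = 0.232). Jak2, the kinase named in the title, had 3.38, 2.70 and 2.84 FPKM in LKO replicates 1 to 3 and 3.0, 2.10 and 2.27 FPKM in WT replicates 1 to 3, and the groups overlapped. Of 15 other ligase genes linked to JAK2 or cytokine receptors, 0 were called (limma), 9 lay above 0 and 6 below, with a median of 0.29 that was 0.13 with LKO replicate 3 left out and 0.09 with WT replicate 3 left out. Cul5, the scaffold of SOCS-box ligases, was at 2.56 ± 0.283 FPKM in LKO and 1.71 ± 0.168 FPKM in WT without overlap, whereas Socs1, which encodes a SOCS-box inhibitor of JAK kinases, overlapped.

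The enzymes around the HECT reaction gave no calls either. Of 15 other HECT ligase genes 0 were called (limma), 8 lay above 0 and 7 below, with a median of 0.03 that was -0.01 with WT replicate 2 left out and 0.13 with WT replicate 1 left out. Hectd4 was at 1.2 ± 0.330 FPKM in LKO and 2.17 ± 0.395 FPKM in WT, without overlap. Of 12 E1 and E2 genes 0 were called (limma) and 9 lay above 0, with a median of 0.15 that was 0.04 with LKO replicate 3 left out and 0.23 with LKO replicate 1 left out. Among them Ube2e2 was at 3.30 ± 1.00 FPKM in LKO and 1.39 ± 0.640 FPKM in WT, Ube2g2 at 12.0 ± 4.93 FPKM in LKO and 6.03 ± 1.51 FPKM in WT, and Ube2l6 at 26.3 ± 2.88 FPKM in LKO and 32.7 ± 3.59 FPKM in WT. All 4 ubiquitin genes, Ubb among them, overlapped between the groups, with a median of 0.41 that was -0.005 with LKO replicate 1 left out and 0.76 with LKO replicate 3 left out. Of 8 deubiquitinase genes 0 were called (limma) and the median was 0.01, between -0.11 without WT replicate 1 and 0.15 without WT replicate 2; Usp2, which acts on the sodium channel and on clock proteins, had 4.26, 5.55 and 18.4 FPKM in LKO replicates 1 to 3 and 14.9, 14.9 and 12.6 FPKM in WT replicates 1 to 3. LKO replicates 1 and 2 were below all WT libraries for Usp2 and LKO replicate 3 above them. The endosomal sorting machinery, which takes ubiquitinated receptors to lysosomes, had 20 tested genes, of which 0 were called (limma), 16 lay above 0 and 4 below, with a median of 0.19 that was 0.10 with LKO replicate 3 left out and 0.32 with LKO replicate 1 left out. Chmp4b, a subunit of the membrane-cutting ESCRT-III filament, was at 30.0 ± 5.95 FPKM in LKO and 16.1 ± 2.49 FPKM in WT, Vps37c at 5.09 ± 0.601 FPKM in LKO and 3.37 ± 0.443 FPKM in WT, and Snf8 at 10.6 ± 1.12 FPKM in LKO and 14.2 ± 1.23 FPKM in WT.

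Few sequence stretches were shared with other genes. No stretch of 50 bases was common to the transcripts of any pair of the 9 genes. The share of such stretches found in any other gene was highest for Wwp1, at 5.62%, mostly in Gm13416, and for Ndfip2, at 4.37%, all of it in the pseudogene Gm16259. Within the Nedd4l gene lies the antisense gene A330084C13Rik, which shares 277 exon bases with it and had a mean of 0.00904 FPKM. No strand setting was given in the sources used here, so antisense reads cannot be told apart.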

How the data were processed

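Liver RNA of LKO and WT mice was sequenced in 6 libraries. Tools listed in the submitters' processing notes, without roles, are featureCounts 1.5.0-p3, HISAT2 2.0.5, CASAVA and DESeq2 1.20.0, with the build mm10; the filters, the strand setting and the annotation release were not given in the sources used here. The authors deposited 1 table per library with 1 FPKM value per gene; the unit was read from the values, since FPKM times merged exon length in GENCODE vM21 was whole within 0.05 read for 96.0% to 96.4% of values above 0. GENCODE held 54495 of 54532 identifiers and gave symbols and coordinates.

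Genes averaging 0.5 FPKM or more were tested with limma-trend (limma 3.58.1, R 4.3.3, robust empirical Bayes) on log2(FPKM + 1), genotype as the only term, with Benjamini-Hochberg adjustment over 11672 genes and a threshold of 0.05. Fold changes on this scale understate changes of low genes. Members and lists were chosen with earlier results of these data known. Named genes were the 9 members, Arid2, Jak2, up to 3 genes per list with the smallest p, the 5 genes nearest to Nedd4l in profile, and overlapping genes. Some genes that this rule names are not reported here. Alternatives were another pseudocount, other filters, a block for the replicate number, leaving out each library or both libraries numbered 1, other scalings, array quality weights and voom on recovered reads. Upstream sequences are from RefSeq (GRCm38.p6), whose table held start sites for 5 of the 9 genes.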

Additional observations from a re-analysis of the deposited data

How the results depend on the processing

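With 3 libraries per genotype, the difference seen for Nedd4l stayed within the spread of its libraries, with LKO values from 2.58 to 18.7 FPKM. Of 16 alternatives, 15 called 0 of the 9 genes and 0 list genes. Array quality weights, whose estimation stopped before converging and which put weights of 5.44 on WT replicate 3 and 2.42 on LKO replicate 2, called 2 of the 9, Nedd4l (log2 difference 1.76, limma adjusted p = 0.0287) and Smurf1 (-0.87, limma adjusted p = 0.0309). They also called 15 list genes and 10.2% of all genes, 621 higher and 574 lower. Over all alternatives the adjusted p ranged from 0.0287 to 1.00 for Nedd4l and from 0.0309 to 1.00 for Smurf1. With each library left out in turn, 0 to 13 genes were called higher and 0 to 4 lower over all genes, against 1 and 4 with all libraries, the 13 without LKO replicate 3; Nedd4l ran from 0.80 to 2.03, Nedd4 from -0.25 to 0.35, Itch from -0.474 to 0.0682, Wwp1 from -0.0214 to 0.518, Ndfip1 from -0.165 to 1.08, Ndfip2 from 0.34 to 0.90, Smurf1 from -0.73 to -0.35, Smurf2 from 0.26 to 0.45 and Wwp2 from -0.27 to -0.03. No filter gave 0 higher and 1 lower, the replicate number as a block 0 and 0, both libraries numbered 1 left out 1 and 1, and equal sums over all genes and quantile normalization 0 higher each. Signs turned without LKO replicate 3 for Nedd4, Wwp1 and Ndfip1, without LKO replicate 1 for Itch, and without WT replicate 1 for Ndfip1 (-0.16). They also turned with quantile normalization for Nedd4 (-0.10) and without both libraries numbered 1 for Itch (0.0078) and Wwp2 (0.0237); Nedd4l, Smurf1, Smurf2 and Ndfip2 kept theirs in all 16 alternatives. The cause was not tested. With the replicate block, Nedd4l had an adjusted p of 0.332 (limma). The SE was smaller with the block for every member but Wwp2, as for Ndfip1 (0.35 against 0.73). The labels tie same-numbered libraries by number alone. Their deviations from the group means correlated at 0.49, 0.30 and -0.02 for numbers 1 to 3 across genes, and LKO replicate 3 correlated best with WT replicate 2 (0.45). The libraries numbered 1 also had the highest mitochondrial shares, 27.6% in LKO and 20.7% in WT. What same-numbered libraries share beyond the number was not tested. With 1 library left out, the mean ligase sum was 51.2 to 55.5 FPKM in LKO and 41.8 to 42.6 FPKM in WT.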
